A study of Mus musculus with 12 samples.

Results

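The Nlrp4, Nlrp9 and Nlrp14 genes of the mouse encode NLRP proteins that are made mainly in germ cells, and 9 of them were followed by RNA-Seq in oocytes across the pubertal transition. The 9 genes, Nlrp4a, Nlrp4b, Nlrp4c, Nlrp4e, Nlrp4f, Nlrp9a, Nlrp9b, Nlrp9c and Nlrp14, were selected by symbol, with earlier results of these data known. They are 9 of the 24562 genes in the count table and 9 of the 13943 genes with counts high enough to test, so that every member was tested. Oocytes were isolated from the antral follicles of CD-1 mice given no hormone, in 4 cohorts named by postnatal day (PND), each with 3 pools of 18 to 45 oocytes. The cohorts were PND 13, PND 40 and a pair at PND 16, whose mice were divided by body weight into PND 16 small and PND 16 large. The study treats PND 13 and PND 16 small as meiotically non-competent, and PND 16 large and PND 40 as competent, and the comparisons below ask how the genes differ between ages and between these groups of cohorts. None of the mice carried a mutation or received gonadotropin, and each library holds RNA of many oocytes rather than of a single cell.

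NLRP proteins carry a pyrin domain, a nucleotide-binding NACHT domain and leucine-rich repeats, and the best known members assemble inflammasomes in immune cells. In rodents a group of NLRP genes was duplicated many times and is expressed in oocytes, where transcripts stored during growth are used until the embryo starts its own transcription. Nlrp5 (Mater) and Nlrp2 of this group contribute to the subcortical maternal complex, a protein assembly under the oocyte membrane. The functions of most Nlrp4 and Nlrp9 proteins in the oocyte are less well defined.

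Of the 9 genes, 8 lie on chromosome 7 and Nlrp4f lies on chromosome 13 (GENCODE vM21, mm10, all annotated as protein-coding). From low to high coordinates, the genes on chromosome 7 are Nlrp4c (chr7:6045161-6105150, plus strand), Nlrp4b (chr7:10687789-10730168, plus), Nlrp9b (chr7:19991465-20073306, plus), Nlrp4e (chr7:23301192-23362277, plus), Nlrp9c (chr7:26322473-26403700, minus), Nlrp4a (chr7:26435113-26476142, plus), Nlrp9a (chr7:26535023-26575615, plus) and Nlrp14 (chr7:107166990-107198102, plus). Nlrp4f is at chr13:65177111-65205977 on the minus strand. The longest coding sequences of the Nlrp4 genes were 77.8% to 93.9% identical in pairs, with Nlrp4c and Nlrp4e the closest pair. Those of the Nlrp9 genes were 82.3% to 87.4% identical, with Nlrp9a and Nlrp9c the closest.

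Sequence upstream of a start site is shown for the members whose upstream sequences resemble each other. The lines give the 130 bases before a RefSeq start (GRCm38.p6), 5′ to 3′ on the strand of the gene, and capitals mark the CCAAT box, searched as CCAAT on both strands.
Nlrp4a, chr7:26435484-26435613, plus strand: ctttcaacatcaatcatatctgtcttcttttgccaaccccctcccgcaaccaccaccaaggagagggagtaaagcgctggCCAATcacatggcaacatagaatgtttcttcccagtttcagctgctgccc
Nlrp4b, chr7:10687663-10687792, plus strand: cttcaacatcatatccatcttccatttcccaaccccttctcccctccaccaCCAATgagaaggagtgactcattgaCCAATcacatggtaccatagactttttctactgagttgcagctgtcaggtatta
Nlrp4c, chr7:6045031-6045160, plus strand: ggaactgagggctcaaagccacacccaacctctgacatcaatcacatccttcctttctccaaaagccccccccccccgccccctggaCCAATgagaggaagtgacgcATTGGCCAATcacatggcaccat
Nlrp9a, chr7:26534893-26535022, plus strand: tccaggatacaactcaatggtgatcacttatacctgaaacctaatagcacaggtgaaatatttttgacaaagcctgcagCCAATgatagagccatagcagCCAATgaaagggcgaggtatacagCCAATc
Nlrp9c, chr7:26403701-26403830, minus strand: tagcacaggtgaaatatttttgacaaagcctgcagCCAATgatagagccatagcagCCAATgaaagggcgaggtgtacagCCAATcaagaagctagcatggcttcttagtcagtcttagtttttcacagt

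The windows of Nlrp9a and Nlrp9c matched at 98.8% of 86 aligned bases and held 3 CCAAT boxes each. The window of Nlrp4c, also with 3, matched that of Nlrp4b at 78.7% of 94 aligned bases and that of Nlrp4a at 77.1% of 96, and Nlrp4a matched Nlrp4b at 77.7% of 121. For Nlrp4a the second of 2 RefSeq starts is shown, since the window of the other held 0 CCAAT boxes and aligned with Nlrp4c over 4 bases and with Nlrp4b over 0. The windows of Nlrp4e, Nlrp4f and Nlrp9b, which are not shown, held 0 CCAAT boxes. Of all 32851 RefSeq promoter entries used, 22.4% held at least 1 CCAAT box in the same window and 0.865% held 3 or more. In Nlrp4a, Nlrp4b and Nlrp4c the CCAAT box nearest to the start was followed directly by the E-box CACATG. E-boxes (CANNTG) are common, being found in 72.3% of promoter entries of 300 bases, from 250 before to 50 after the start, and in all 10 entries of the 8 members that have one. The elements TAATTG and TAATTA, which the oocyte factor NOBOX can bind, were found in 8% and 5.29% of the 300-base entries. Both occurred in Nlrp9a and the first also in Nlrp9b. These matches are descriptions of the sequence, and binding was not measured.

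Expression is given as CPM, read counts normalised to the size of the library and scaled by TMM, which corrects for differences in library composition. Total counts ranged from 17671193 to 27418358 per pool, and the lowest count of any member in any pool was 879, for Nlrp4c. Each of 12 oocyte marker genes was detected in every pool, with summed levels of 14141 to 17300 CPM. The sum of 14 granulosa cell markers, all above 0 in every pool, ranged from 132 to 696 CPM. It was highest in PND 16 small replicate 2, PND 13 replicate 3 and PND 13 replicate 1 (696, 643 and 554 CPM), and lowest in PND 13 replicate 2 and PND 16 small replicate 1 (132 and 189 CPM among the non-competent pools). The competent pools had 170 to 219 CPM. Summed theca and stroma markers did not exceed 48.7 CPM, and immune cell markers 7.14 CPM. CPM is a share of the RNA in a library, so fewer oocytes with a transcript and less of it per oocyte cannot be told apart, nor can a change in the total RNA of a growing oocyte be seen.

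Nlrp14 was the leading member by far. In every pool except PND 40 replicates 2 and 3, only the ribosomal precursor Rn45s had a higher count, and in those 2 pools no gene did. Nlrp14 alone took 0.526% to 0.825% of all counts. The 9 genes together took 1.41% ± 0.0818 of the counts at PND 13 (mean ± SD, n = 3 pools), 1.40% ± 0.0921 in PND 16 small, 1.28% ± 0.0363 in PND 16 large and 1.17% ± 0.0282 at PND 40.

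Levels of different genes were compared per kb of annotated exon. Over the 12 pools Nlrp14 averaged 1867 CPM per kb (range 1493 to 2257), followed by Nlrp4f with 566 (474 to 669), Nlrp9b with 311 (272 to 372), Nlrp4a with 259 (229 to 284) and Nlrp4b with 172 (151 to 193). Lower still were Nlrp9a with 160 CPM per kb (120 to 190), Nlrp9c with 67.5 (57.0 to 79.5), Nlrp4e with 52.2 (32.8 to 66.3) and Nlrp4c with 12.7 (8.80 to 19.6). The ranges of neighbours in this order overlapped for Nlrp9b and Nlrp4a, for Nlrp4b and Nlrp9a, and for Nlrp9c and Nlrp4e. Within pools, Nlrp4b was above Nlrp9a in 10 of 12, and every other neighbour kept its place in all 12. Per kb of the longest coding sequence, Nlrp4a (426 CPM per coding kb) came before Nlrp9b (385), and the other places were the same. The plot of CPM per kb shows this order.

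**Figure D1:**
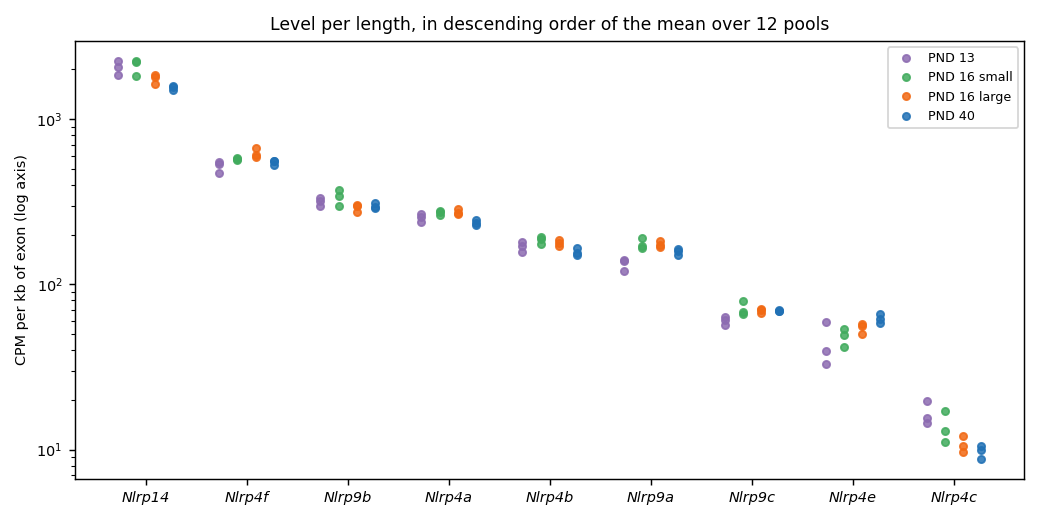
Level of each gene in CPM per kb of exon on a log axis, with 1 point per pool coloured by cohort and genes in descending order of their mean over 12 pools. Nlrp14 averaged 1867 CPM per kb and Nlrp4c 12.7, with the cohorts of each gene close together on this scale.

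The reads behind these values can be shared between copies. Of the distinct 50-base stretches of the annotated transcripts of Nlrp4e, 36.7% also occurred in transcripts of another gene, most often the predicted gene Gm16443 (30.8%). The shares were 10.7% for Nlrp4c, mostly in common with Nlrp4e, 7.79% for Nlrp9b, 6.07% for Nlrp9a, 5.95% for Nlrp4f, 2.63% for Nlrp4a and 2.61% for Nlrp9c. No such stretch was shared for Nlrp4b or Nlrp14. Reads were 50 bases long, and how reads with several matches were counted is not given in the sources used here, so the level of Nlrp4e in particular is uncertain.

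A gene was called changed when edgeR's quasi-likelihood test gave an adjusted p of at most 0.05 and the change was at least 1.5-fold. Genes past the adjusted p alone are given too. Across the cohorts the clearest differences were in Nlrp4c and Nlrp14, which were lower in the older or competent cohorts, and in Nlrp9a, which was lowest at PND 13. The plot of CPM by cohort shows all values, and the plot of log2 fold changes shows the tests. All comparisons with PND 13 share the same PND 13 pools.

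**Figure D2:**
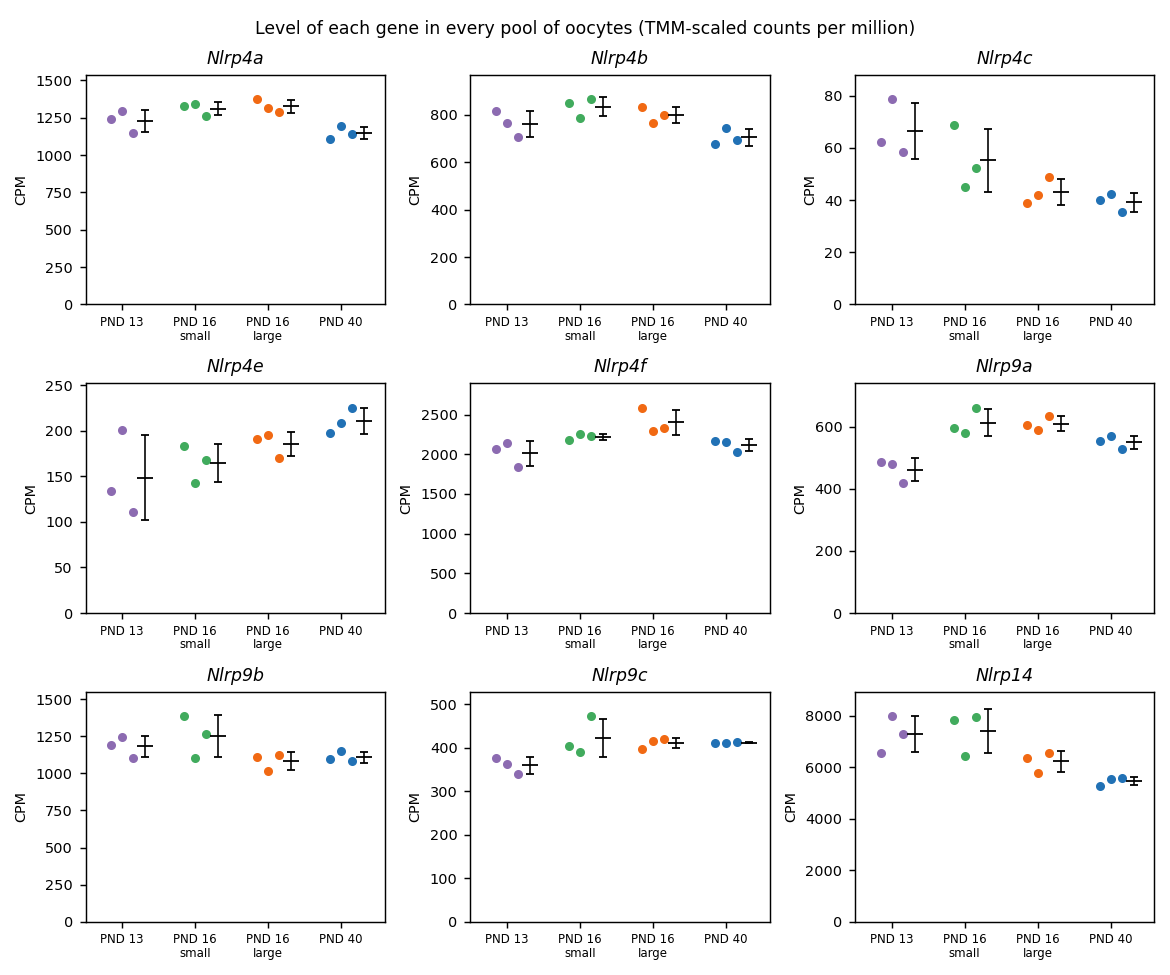
CPM of each gene in each of the 12 pools (points), with the mean ± SD of the 3 pools of a cohort beside them (black); each vertical axis starts at 0 and has its own scale. Nlrp4c fell from 66.5 CPM at PND 13 to 39.2 CPM at PND 40 and Nlrp14 from 7286 to 5472 CPM, while Nlrp9a was lowest at PND 13 (462 CPM).

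Nlrp14 has been described as a maternal factor in the early embryo. Its level was 6573, 7984 and 7299 CPM in PND 13 replicates 1 to 3, and 7846, 6445 and 7974 CPM in PND 16 small. It was 6360, 5779 and 6558 CPM in PND 16 large, and 5281, 5550 and 5586 CPM at PND 40. The PND 40 pools lay below every pool of the other cohorts, and the PND 16 large pools overlapped those of PND 16 small only through PND 16 small replicate 2. Nlrp14 fell by 0.41 on the log2 scale (SE 0.0937) from PND 13 to PND 40, a change of -24.9% (adjusted p = 0.00461). It was likewise lower at PND 40 than in PND 16 small (log2 fold change -0.44, SE 0.0937, adjusted p = 0.00348). Neither difference reached 1.5-fold. From PND 13 to PND 16 large the value was -0.23 (adjusted p = 0.0952), and from PND 16 large to PND 40 it was -0.19 (adjusted p = 0.260).

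The Nlrp4 genes did not follow a common course. Human NLRP4 has been described as a brake on interferon signalling and autophagy, and the mouse copies are named after it. Nlrp4c had 62.4, 78.7 and 58.5 CPM in the PND 13 pools, 68.7, 44.8 and 52.1 CPM in PND 16 small, 38.8, 42.1 and 48.7 CPM in PND 16 large, and 39.9, 42.3 and 35.3 CPM at PND 40. Every PND 13 pool was above every pool of PND 16 large and PND 40. Nlrp4c was the only member past both criteria in any comparison. It was lower in PND 16 large than at PND 13, with a change of -35.1% (log2 fold change -0.62, SE 0.158, adjusted p = 0.0120) and lower at PND 40, with a change of -41.1% (-0.76, SE 0.159, adjusted p = 0.00269). Without PND 16 large replicate 1 the first of these was no longer past the threshold (-0.57, adjusted p = 0.0599). At PND 40 it was also lower than in PND 16 small, with a change of -29.1% (-0.50, adjusted p = 0.0306). That difference stayed past the threshold in 2 of 6 fits that left out a pool: it was -0.30 without PND 16 small replicate 1 (adjusted p = 0.128), and the adjusted p was 0.0760, 0.0512 and 0.117 without PND 40 replicates 1, 2 and 3.

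Nlrp4e, the closest relative of Nlrp4c in coding sequence, was higher at PND 40 than at PND 13. Its level was 134, 201 and 111 CPM in PND 13 replicates 1 to 3 and 183, 143 and 168 CPM in PND 16 small. It was 191, 195 and 170 CPM in PND 16 large and 198, 209 and 226 CPM at PND 40. PND 13 replicate 2 lay among the pools of the competent cohorts, so the groups overlapped. The difference between PND 40 and PND 13 was 0.50 (log2, SE 0.176, adjusted p = 0.0469). It passed in 7 of 11 alternative settings and in 1 of 6 fits that left out a pool, that without PND 13 replicate 2. Without PND 13 replicate 3 it was 0.33 (adjusted p = 0.145), without PND 13 replicate 1 0.43 (adjusted p = 0.143), and without PND 40 replicates 1, 2 and 3 the adjusted p was 0.0755, 0.0979 and 0.131. The 3 lowest pools, PND 13 replicates 3 and 1 and PND 16 small replicate 2, were also the 3 with the most granulosa marker RNA, as the plot of gene level against granulosa cell genes shows. Without those 3 pools the PND 40 difference was 0.07 (adjusted p = 0.730), and that of PND 16 large from PND 13, which was 0.32 (adjusted p = 0.212) with all pools, was -0.11. Without the 2 non-competent pools with the least granulosa RNA, PND 13 replicate 2 and PND 16 small replicate 1, the PND 40 difference was 0.76 (adjusted p = 9.90e-05). PND 40 replicates 1 and 3 had less of it (175 and 170 CPM) than PND 16 small replicate 1 (189 CPM) and stayed in that fit. With the granulosa marker level as a covariate the PND 40 difference was 0.39 (adjusted p = 0.00549).

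**Figure D3:**
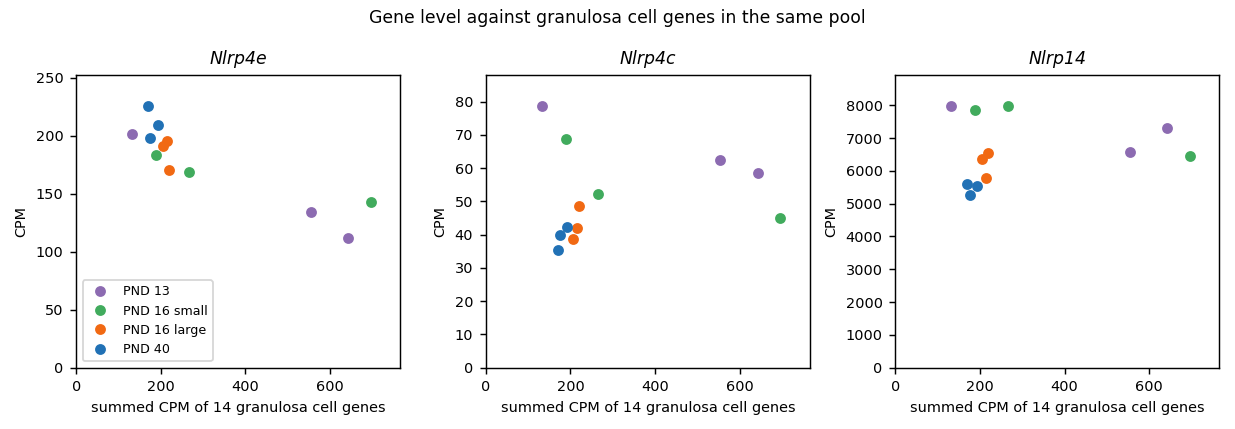
CPM of Nlrp4e, Nlrp4c and Nlrp14 in each pool (vertical) against the summed CPM of 14 granulosa cell genes in the same pool (horizontal), coloured by cohort. The 3 pools above 500 CPM of granulosa genes have the 3 lowest levels of Nlrp4e (111, 134 and 143 CPM). Nlrp14 is lowest in the PND 40 pools, and Nlrp4c is low in pools of both PND 40 and PND 16 large. Within PND 13 and PND 16 small, Nlrp4c is highest in the pool with the least granulosa RNA (78.7 and 68.7 CPM). It is lowest in the pool with the most (58.5 and 44.8 CPM).

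Nlrp4f, the most abundant Nlrp4 gene, had 2063, 2142 and 1834 CPM at PND 13, 2177, 2255 and 2226 CPM in PND 16 small, 2587, 2294 and 2337 CPM in PND 16 large, and 2170, 2150 and 2034 CPM at PND 40. It was highest in PND 16 large, where each pool exceeded all pools of the other cohorts. The difference of PND 16 large from PND 13 was 0.26 (log2, SE 0.0727, adjusted p = 0.0201), but with total counts in place of TMM it was 0.16 (adjusted p = 0.0792). It was also short of the adjusted p threshold without PND 13 replicate 3 or without PND 16 large replicates 1 or 3.

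Nlrp4a and Nlrp4b ran close to each other. Nlrp4a had 1244, 1293 and 1151 CPM at PND 13, 1326, 1344 and 1265 CPM in PND 16 small, 1375, 1314 and 1290 CPM in PND 16 large, and 1107, 1192 and 1144 CPM at PND 40. Nlrp4b had 814, 763 and 705 CPM, 848, 787 and 865 CPM, 833, 764 and 800 CPM, and 676, 743 and 692 CPM in the same order. For both, the PND 40 pools were below all pools of PND 16 small and PND 16 large. At PND 40 compared with PND 16 small, Nlrp4a was lower with a change of -12.5% (log2 fold change -0.19, SE 0.0642, adjusted p = 0.0368) and Nlrp4b with -15.6% (-0.24, SE 0.0715, adjusted p = 0.0203). The difference of Nlrp4a stayed past the adjusted p in 1 of 6 fits that left out a pool of these cohorts, and that of Nlrp4b in 4 of 6.

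Among the Nlrp9 genes, Nlrp9a was already higher in PND 16 small. NLRP9 proteins are less studied, and mouse Nlrp9b is known as a sensor of viral RNA in the intestine. Nlrp9a had 487, 480 and 418 CPM at PND 13, 597, 581 and 661 CPM in PND 16 small, 604, 588 and 636 CPM in PND 16 large, and 553, 568 and 528 CPM at PND 40. All PND 13 pools lay below all other pools. The difference from PND 13 was 0.41 in PND 16 small (log2, SE 0.0752, adjusted p = 0.0318), 0.40 in PND 16 large (SE 0.0751, adjusted p = 0.00240) and 0.25 at PND 40 (SE 0.0751, adjusted p = 0.0206). These are rises of 32.7%, 32% and 19%. The PND 16 large difference was past the threshold in all 6 fits that left out a pool, the PND 16 small difference in 4 of 6 and the PND 40 difference in 3 of 6. In the same order they passed in 11, 8 and 10 of 11 alternative settings. The PND 16 small adjusted p was 0.0590 with total counts alone, 0.0692 with a replicate block and 0.377 with only these cohorts fitted. The PND 40 difference fell short with total counts alone (adjusted p = 0.0502). The PND 16 small difference was lost without PND 13 replicate 3 (adjusted p = 0.159) or PND 16 small replicate 3 (adjusted p = 0.106), and the PND 40 difference without PND 13 replicate 3 (adjusted p = 0.0929) or PND 40 replicates 1 or 2 (adjusted p = 0.0597 and 0.0755).

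Nlrp9c had 376, 363 and 338 CPM at PND 13, 403, 391 and 472 CPM in PND 16 small, 397, 415 and 419 CPM in PND 16 large, and 410, 411 and 413 CPM at PND 40. Its PND 13 pools too were below all others, but no difference was past the adjusted p: 0.23 in PND 16 small (adjusted p = 0.111), 0.19 in PND 16 large (adjusted p = 0.0724) and 0.20 at PND 40 (adjusted p = 0.0571). Nlrp9b had 1195, 1248 and 1107 CPM at PND 13, 1387, 1106 and 1268 CPM in PND 16 small, 1114, 1015 and 1124 CPM in PND 16 large, and 1097, 1150 and 1082 CPM at PND 40. The cohorts overlapped, and no difference of Nlrp9b was past edgeR's adjusted p. Between competent and non-competent pools it was -0.15 (adjusted p = 0.0871) and passed in 4 of 11 alternative settings.

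**Figure D4:**
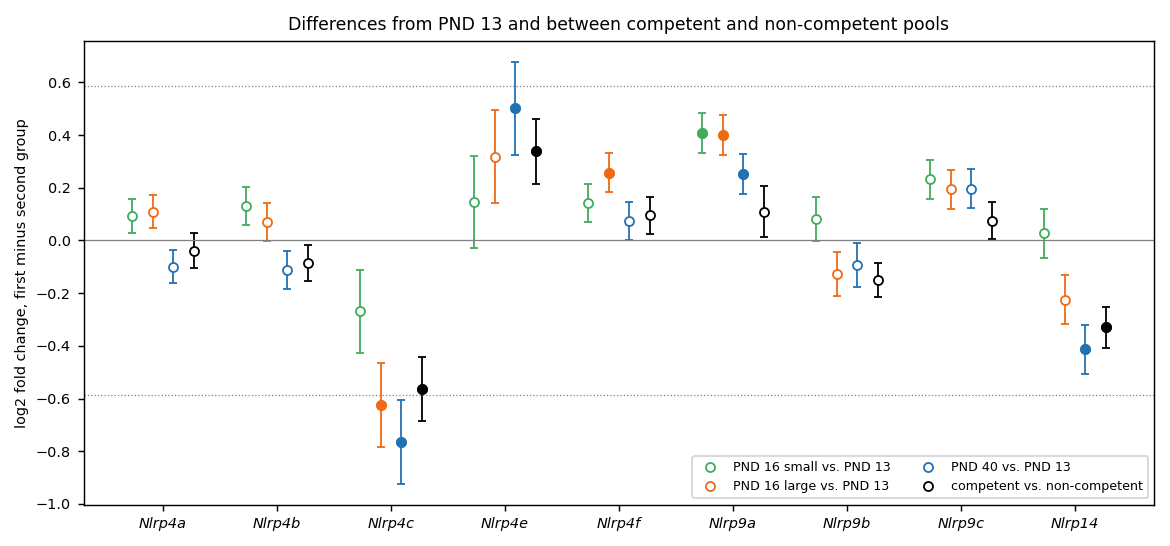
Log2 fold change of each gene (points) ± SE from PND 13 in the other cohorts, and between the competent and non-competent pools; filled points have an adjusted p of at most 0.05 and dotted lines mark 1.5-fold. Nlrp4c is the only gene beyond the dotted lines, at -0.62 and -0.76, and Nlrp9a is filled in the 3 comparisons with PND 13.

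The members past each criterion are counted here beside the share of all genes tested. In PND 16 small vs. PND 13, 1 member was past the adjusted p, a higher one, against 0.925% of all genes tested, and edgeR called 0 members at 1.5-fold, against 0.373%. At an unadjusted p under 0.05 there were 2 members, and DESeq2 placed 2 past its adjusted p, with 1091 of all 13943 genes. No share of all genes is given for the unadjusted p in this or the later comparisons. In 3 members the pools did not overlap, where 18.1% of all genes did not. Here Nlrp4a, Nlrp9b and Nlrp14, none past the test, were slightly higher (0.09, 0.08 and 0.03), and slightly lower with total counts in place of TMM, a scaling that moved the median of all genes from -0.03 to -0.12.

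In PND 16 large vs. PND 13, 3 members were past the adjusted p, 2 of them higher, against 25.6% of all genes, and 1 was called at 1.5-fold, against 13.3%. The pools of 5 members did not overlap, against 45.5% of genes. In PND 40 vs. PND 13, 4 members were past the adjusted p, 2 in each direction, against 33.1%, and 1 at 1.5-fold, against 18.9%, with 4 members not overlapping, against 50.8%. The median log2 fold change of the 9 members was 0.11 and -0.09 in these comparisons, and that of all genes tested -0.04 and 0.00443.

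Between the PND 16 cohorts, which differ in body weight at the same age, edgeR found 0 members past the adjusted p, against 12.3% of genes, and hence 0 at 1.5-fold, against 6.19%. At an unadjusted p under 0.05 there were 3 members, all lower in PND 16 large: Nlrp4c (-0.35), Nlrp9b (-0.21) and Nlrp14 (-0.25). With no share of all genes given at that threshold, whether this count is unusual was not tested. DESeq2 placed 1 member past its adjusted p, with 2622 of 13943 genes. Without PND 16 small replicate 2, edgeR placed 2 members past the adjusted p, Nlrp9b (-0.29, adjusted p = 0.0280) and Nlrp14 (-0.34, adjusted p = 0.0216), against 1961 of 14311 genes. With the granulosa covariate there were 2 (Nlrp4c and Nlrp14), against 2185 of 13943 genes. The pools of 1 member, Nlrp4f, did not overlap, against 31.5% of genes. Between the competent cohorts, PND 40 vs. PND 16 large, edgeR again found 0 members past the adjusted p, against 6.83% (and 3.66% at 1.5-fold). At an unadjusted p under 0.05 there were 3 members, and DESeq2 placed 1 past its adjusted p, with 1738 of 13943 genes. With only the pools of these cohorts in the fit, edgeR placed 5 members past the adjusted p, against 2897 of 13201 genes. All 5 were lower at PND 40 (Nlrp4a, Nlrp4b, Nlrp4f, Nlrp9a and Nlrp14, adjusted p = 0.00896 to 0.0464). In this comparison 6 members did not overlap, against 39.3% of genes. Their median log2 fold change was -0.15, and that of all genes 0.00366.

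In PND 40 vs. PND 16 small, 4 members were past the adjusted p, all lower at PND 40 (Nlrp4a, Nlrp4b, Nlrp4c and Nlrp14), against 30.2% of genes. At 1.5-fold edgeR called 0, against 17.2%, with 4 members at an unadjusted p under 0.05. DESeq2 placed 4 members past its adjusted p, with 4798 of 13943 genes. In 7 members the pools did not overlap, against 43.9% of genes.

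When the 6 competent pools were compared with the 6 non-competent pools, 3 members were past the adjusted p, against 30.7% of genes. Nlrp4c was lower in competent oocytes with a change of -32.4% (log2 fold change -0.56, SE 0.123, adjusted p = 0.00335), from 60.9 ± 12 CPM to 41.2 ± 4.49 CPM (SD, n = 6). Nlrp14 was lower with a change of -20.4% (-0.33, SE 0.0779, adjusted p = 0.00555), from 7354 ± 702 CPM to 5852 ± 500.1 CPM. Both stayed past the threshold in 11 of 11 alternative settings and in 12 of 12 fits without a pool. Without the 3 pools richest in granulosa RNA their differences were -0.69 and -0.43. Without the 2 non-competent pools poorest in it they were -0.41 and -0.28. Nlrp4e was higher by 26.4% (0.34, SE 0.122, adjusted p = 0.0485), from 157 ± 33.4 CPM to 198 ± 18.5 CPM, but passed in 7 of 11 settings and 3 of 12 fits without a pool. Without the 3 granulosa-rich pools its difference was 0.11 (adjusted p = 0.447). At 1.5-fold edgeR called 0 members, against 15% of genes, with 4 at an unadjusted p under 0.05. DESeq2 placed 4 past its adjusted p, with 4897 of 13943 genes. In none of the 9 were the 6 and 6 pools fully apart, against 14.7% of genes. Since these groups combine ages, age and competence cannot be told apart in them.

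Because a ratio of genes within a pool does not depend on how that pool was scaled, the ratios of all 36 pairs of members were compared between competent and non-competent pools by an exact two-sided permutation test over the 924 splits of the 12 pools. In 22 pairs the exact permutation test gave an adjusted p of at most 0.05 (Benjamini-Hochberg over 36 pairs), and in 7 pairs the 6 ratios of one group lay entirely above those of the other, with p = 0.00216, the smallest this design can give (adjusted p = 0.0111). Pairs share genes and so are not independent of each other. No share is given for pairs of other genes, so whether these counts are unusual was not tested. Among all single genes tested, 30.7% were past edgeR's adjusted p between these groups, and 14.7% had pools that did not overlap. Both shares are for single genes and the first is by another test, so neither is a background for the pairs. The permutation test treats single pools as exchangeable, although each group is 2 cohorts of 3 pools, so its p-values do not allow for likeness within a cohort. For example, the ratio of Nlrp9a to Nlrp14 was 0.0573 to 0.0741 at PND 13 and 0.0761 to 0.0902 in PND 16 small. Without the 3 granulosa-rich pools 10 pairs passed, and without PND 16 large replicate 2 there were 14. With 3 pools fewer the permutation test has fewer splits, and its smallest possible p is larger than 0.00216. The cause of the fall to 10 pairs was not tested.

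The pair with the largest shift was Nlrp4e to Nlrp4c. Its ratio of CPM was 2.14, 2.55 and 1.90 in the PND 13 pools and 2.67, 3.18 and 3.22 in PND 16 small. It was 4.92, 4.63 and 3.49 in PND 16 large, and 4.94, 4.93 and 6.38 at PND 40. Every competent pool was above every non-competent pool, and the log2 ratio of Nlrp4c to Nlrp4e was lower by 0.91 in competent pools (exact permutation p = 0.00216, adjusted p = 0.0111). Nlrp9a to Nlrp4c separated the groups as well, although PND 16 small replicates 2 and 3 (12.9 and 12.7) came close to the lowest competent pool (13.0).

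Nlrp14 fell relative to 6 of the other members. Against Nlrp14, Nlrp4e rose by 0.69 on the log2 scale, Nlrp9a by 0.45, Nlrp4f by 0.42 and Nlrp9c by 0.41, each with no overlap and adjusted p = 0.0111 by the exact permutation test. The ratio of Nlrp4f to Nlrp14 was 0.251 to 0.350 in the non-competent pools and 0.356 to 0.411 in the competent pools. Nlrp4a and Nlrp4b rose against it by 0.29 (adjusted p = 0.0195) and 0.24 (adjusted p = 0.0260). For Nlrp9b the difference was 0.18 (exact permutation adjusted p = 0.0552) and for Nlrp4c -0.22 (adjusted p = 0.120). Within the Nlrp4 genes, the ratio of Nlrp4f to Nlrp4b was 2.53 to 2.87 in the non-competent pools and 2.89 to 3.21 in the competent pools, a small shift without overlap.

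Some pairs did not part between competent and non-competent pools. The log2 ratio of Nlrp4a to Nlrp4b differed by 0.05 (exact permutation p = 0.277), with means of 0.72 ± 0.0361 in the competent and 0.67 ± 0.0877 in the non-competent pools (SD, n = 6). That of Nlrp9a to Nlrp9c differed by 0.04 (exact permutation p = 0.491), but its cohorts differed within these groups. The ratio was 1.24 to 1.32 at PND 13 and 1.28 to 1.38 at PND 40, and lay wholly above both in PND 16 small (1.40 to 1.49) and PND 16 large (1.42 to 1.52). These differences between cohorts were not tested. Nlrp4c shifted against both, with log2 differences of 0.51 and 0.46 in favour of Nlrp4a and Nlrp4b (exact permutation adjusted p = 0.0223 and 0.0260). Nlrp9b was lower relative to Nlrp9c by 0.23 (exact permutation adjusted p = 0.0223).

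**Figure D5:**
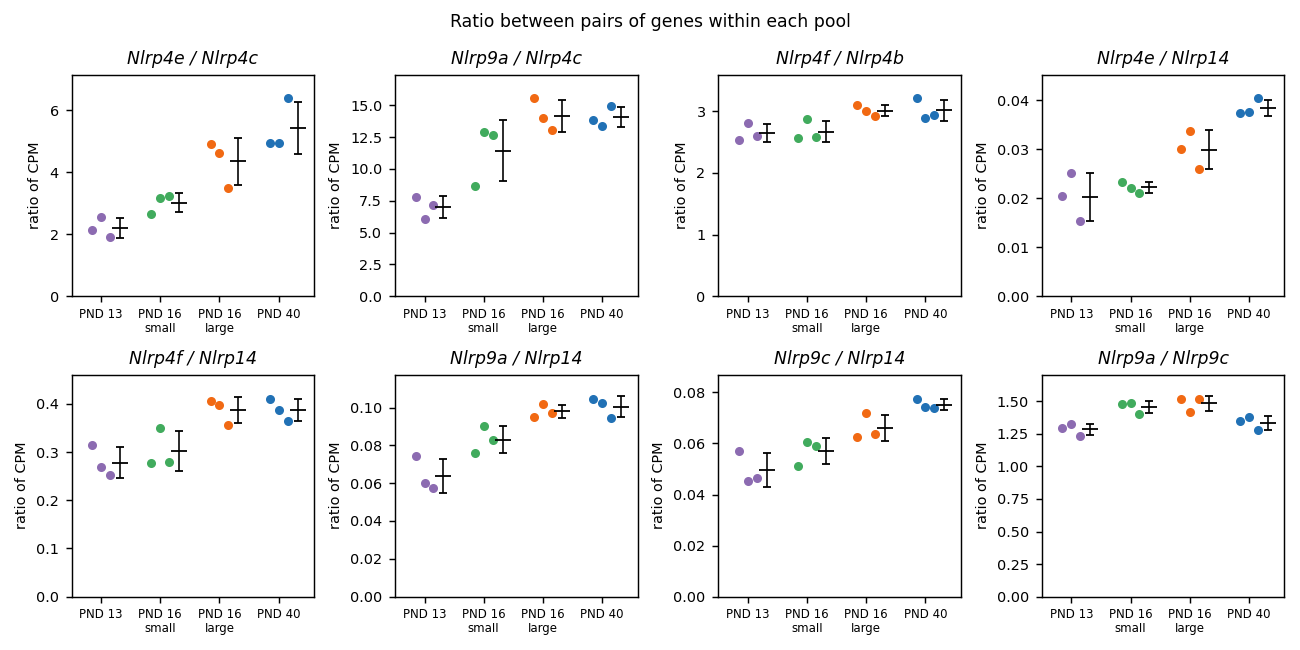
Ratio of CPM of pairs of genes within each pool (points), with the mean ± SD of the 3 pools of a cohort (black): the 7 pairs whose competent and non-competent pools did not overlap, and Nlrp9a to Nlrp9c. Nlrp4e to Nlrp4c runs from 1.90 in a PND 13 pool to 6.38 in a PND 40 pool, whereas Nlrp9a to Nlrp9c is higher in both PND 16 cohorts (1.40 to 1.52) than at PND 13 or PND 40 (1.24 to 1.38).

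The spread within cohorts differed between members. The mean coefficient of variation between the 3 pools of a cohort was 4.0% for Nlrp4a, 4.74% for Nlrp9c and 4.94% for Nlrp4f, 7.67% for Nlrp14, and 14.8% for Nlrp4c and 14.4% for Nlrp4e. It reached 31.3% for Nlrp4e at PND 13. It was 6.95% in the median of the 4009 tested genes with a mean of 50 to 10000 CPM.

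The genes whose log2 CPM followed each member most closely over the 12 pools, by Pearson's r, are given as a description of likeness. The points share libraries, depth and cohorts, and 9237 genes were searched. For Nlrp14 the closest was Nlrp5, the maternal effect gene Mater (r = 0.967), followed by Nsf and Map3k15. For Nlrp9a it was Ccnb3, which encodes cyclin B3 (r = 0.974), for Nlrp4e Abcb4, a phospholipid transporter (r = 0.973), and for Nlrp4c Rnf4, a ubiquitin ligase (r = 0.961). Nlrp4f was followed most closely by Tex16 (r = 0.956), Nlrp4b by Zfp943 (r = 0.949) with Nlrp2 also among its top 3 (r = 0.920), and Nlrp9c by Ccdc158 (r = 0.940). The highest values were lower for Nlrp4a (0610040J01Rik, r = 0.908) and Nlrp9b (Homer1, r = 0.908). Among the members themselves the highest were Nlrp9a with Nlrp9c (r = 0.880), Nlrp4c with Nlrp14 (r = 0.829) and Nlrp4a with Nlrp4b (r = 0.813).

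Of 22 other NLR genes in the table, 11 had counts high enough to test. In competent compared with non-competent pools, 1 of the 11 was called higher and 3 lower, against 15% of all genes tested. The lower ones were Nlrp5 (log2 fold change -0.62, SE 0.129, adjusted p = 0.00251), the low-level Nlrp12 (-0.88, SE 0.267, adjusted p = 0.0223) and the pseudogene Nlrp5-ps (-3.16, SE 1.11, adjusted p = 0.0492). The reads of Nlrp5-ps came almost wholly from PND 13 replicate 2 (39.2 CPM) and PND 16 small replicate 1 (20.4 CPM), with at most 1.63 CPM in any other pool. The higher gene, Nlrp10, averaged 1.40 CPM at PND 40 and 0.0676 CPM at PND 13. Naip1, a gene of the NAIP sensors, was called lower only at PND 40 vs. PND 16 small (-0.91, adjusted p = 0.0117). Nlrp2 was lower in the same comparison (-0.28, adjusted p = 0.00963) and Nlrp4g higher in PND 16 large than at PND 13 (0.21, adjusted p = 0.0398), both short of 1.5-fold. Nod2 (mean 72.1 CPM) and Nlrc4 (mean 5.17 CPM) were not past the test in any comparison.

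Of 15 inflammasome genes, 8 were tested, and the rest had counts too low to test. In competent pools 1 was higher and 1 lower past the adjusted p, against 30.7% of all genes tested. Txnip, a binding partner of NLRP3, was the higher one (0.34, adjusted p = 0.00539), short of 1.5-fold. Gsdmd, the pore-forming gasdermin D, was lower (-1.58, adjusted p = 0.0342) at a level of 0.406 CPM. Nek7 was higher in PND 16 large than at PND 13 (0.33, adjusted p = 0.0429), also short of 1.5-fold. Casp8 and Ripk2 were not past the test in any comparison. Of 7 genes of the subcortical maternal complex, which include Nlrp2 and Nlrp5, 2 were higher and 2 lower past the adjusted p in competent pools, against 30.7% of all genes tested. By level the leading ones were Zbed3 (0.19, adjusted p = 0.00823), Padi6 (-0.43, adjusted p = 0.0211), Nlrp5, and Tle6, which was not past the test.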

How the data were processed

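RNA-Seq libraries of 12 pools of mouse oocytes were analysed. The authors made directional libraries after rRNA depletion and sequenced 50-base reads. The submitters' processing notes name STAR, HTSeq and mm10 without versions. The authors deposited raw counts of reads per gene for 24562 genes, and log2 values of the counts scaled by a size factor per pool plus 1, which served as an alternative. Cohort and replicate came from the sample labels.

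Counts were tested with edgeR 4.0.16 (R 4.3.3) by a robust quasi-likelihood fit over all 12 pools, with TMM scaling and filterByExpr (minimum count 10). P-values were adjusted over all 13943 genes tested (Benjamini-Hochberg), two-sided. Log2 CPM used a prior count of 2. The code was tested on simulated data. Oocytes of 3 mice per condition went into 3 pools described as independent; whether each pool is 1 mouse is not given in the sources used here. P-values measure the spread between these pools. Pools of a cohort differed by more than sampling noise (chi-square per gene of 9.17 to 50.6). Alternatives were DESeq2 1.42.0, limma 3.58.1 on the deposited log2 values, other scalings and filters, a granulosa marker covariate, a replicate block and leaving out pools. Settings without granulosa-rich or granulosa-poor pools, and length by coding sequence, were chosen after seeing the data.

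All 9 members were named. Other NLR and inflammasome genes were named if called in any comparison or at a mean of at least 5 CPM, maternal complex genes if among the 4 with the highest means, and the most alike genes if in the top 3 by Pearson's r. Members and lists were chosen with earlier results of these data known. Coordinates and exon lengths came from GENCODE vM21, coding sequences were aligned with Biopython 1.88, and promoter sequences came from RefSeq (GRCm38.p6, 10 entries for 8 of the 9 members).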

Additional observations from a re-analysis of the deposited data

How the results depend on the processing

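No setting reversed a member that was past the adjusted p with all pools. Under the settings listed at the outset, values of single members fell short of the adjusted p in 52 cases and newly passed it in 34, with 1014 values keeping their side. Without the 1.5-fold criterion, the counts of members called were 1 in PND 16 small vs. PND 13, 3 in PND 16 large vs. PND 13, 4 in PND 40 vs. PND 13, 4 in PND 40 vs. PND 16 small and 3 in competent vs. non-competent. In the competent comparison the count of 0 became 1 (Nlrp4c) with total counts alone, with the granulosa covariate, and without the 3 granulosa-rich pools, which also gave 1 in PND 40 vs. PND 16 small. Without the 2 granulosa-poor pools there were 0 in PND 16 large vs. PND 13 and 2 in PND 40 vs. PND 13. Leaving out 1 pool gave 0 to 1 in PND 16 large vs. PND 13 (0 without PND 13 replicate 2 or PND 16 large replicate 1), 1 to 2 in PND 40 vs. PND 13 (2 without PND 13 replicate 2), 0 to 1 in PND 40 vs. PND 16 small (1 without PND 16 small replicate 2) and 0 to 1 in the competent comparison (1 without PND 16 large replicate 3 or PND 16 small replicates 2 or 3). Of the 36 ratios, 22 passed with all pools, 14 to 26 without 1 pool (14 without PND 16 large replicate 2), 10 without the granulosa-rich pools and 0 with PND 40 and PND 13 pools only, where the smallest possible p is 0.1. The cause of these changes was not tested. Over all genes, calls in PND 16 small vs. PND 13 numbered 52, but 25 with total counts alone (24% higher against 48.1%, as the median of all genes moved to -0.12), 10 with the replicate block, 218 with the granulosa covariate, 2 when only these cohorts entered the fit, 361 with DESeq2 and 4 to 817 without 1 pool. In PND 40 vs. PND 16 large they numbered 510, but 782 with DESeq2, 1081 when only these cohorts entered the fit and 246 to 662 without 1 pool. In PND 16 large vs. PND 16 small they numbered 863, but 475 when only these cohorts entered the fit and 333 to 1144 without 1 pool. With at least 879 counts per member and pool, counting error is small.

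Correlations of the deviations of same-numbered pools were -0.44 to 0.08, so no pairing by replicate number was seen. With 3 pools per cohort, these correlations cannot exclude a batch shared by replicate number. The replicate block gave the same counts of members called in all 7 comparisons (1 in PND 16 large vs. PND 13 and in PND 40 vs. PND 13, otherwise 0). Past the adjusted p alone it gave 0 members against 1 in PND 16 small vs. PND 13 (Nlrp9a lost, adjusted p = 0.0692) and 12 of all 13943 genes against 129. PND 40 vs. PND 13 had 3 against 4 (Nlrp4e lost, 0.0579) and 4222 genes against 4612. PND 40 vs. PND 16 small had 3 against 4 (Nlrp4c lost, 0.0519) and 3922 against 4207. The competent comparison had 2 against 3 (Nlrp4e lost, 0.0644) and 3735 against 4283. There were 17 ratios past the threshold under permutation within replicate numbers.

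Values that changed sign were all short of the threshold with all pools. With total counts alone the log2 fold change in PND 16 small vs. PND 13 was -0.00367 for Nlrp4a, -0.0147 for Nlrp9b and -0.0729 for Nlrp14. In PND 16 large vs. PND 13 it was -0.025 for Nlrp4b. Without the granulosa-rich pools it was -0.000206 for Nlrp4a, -0.20 for Nlrp4e and -0.017 for Nlrp14 in PND 16 small vs. PND 13. It was also -0.11 for Nlrp4e (PND 16 large vs. PND 13), -0.0141 for Nlrp4f (PND 40 vs. PND 13) and -0.000102 for Nlrp9c (competent vs. non-competent). With no filter on counts the log2 fold change was 0.00854 for Nlrp9a (PND 16 large vs. PND 16 small) and -0.00713 for Nlrp9c (PND 40 vs. PND 16 large). For Nlrp9c in PND 40 vs. PND 16 large it was -0.00903 with RLE factors, -0.00425 with other samples in the fit, -0.00903 with DESeq2, -0.00836 with limma on the deposited log2 values, -0.00835 with limma and a pseudocount of 10, -0.00635 without the granulosa-poor pools. With the granulosa covariate it was -0.0152 for Nlrp14 (PND 16 small vs. PND 13). Leaving out 1 pool gave -0.0256 to 0.41 for Nlrp4e and -0.0432 to 0.10 for Nlrp14 in PND 16 small vs. PND 13. In PND 16 large vs. PND 16 small it gave -0.00909 to 0.0374 for Nlrp4a, -0.0416 to 0.0494 for Nlrp9a and -0.0879 to 0.0489 for Nlrp9c. In PND 40 vs. PND 16 large it gave -0.0233 to 0.0553 for Nlrp9b and -0.0264 to 0.0132 for Nlrp9c. In PND 40 vs. PND 16 small it gave -0.092 to 0.0447 for Nlrp9c.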
